A study of Homo sapiens with 9 samples.

Results

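The 4 miRNA hairpins miR-423, miR-92b, miR-652 and miR-4758 were followed by both of their arms, 8 of the 2019 miRNA probes on the array (hsa-miR-423-5p, hsa-miR-423-3p, hsa-miR-92b-5p, hsa-miR-92b-3p, hsa-miR-652-5p, hsa-miR-652-3p, hsa-miR-4758-5p and hsa-miR-4758-3p, written below without the prefix). They were selected on their globally normalized intensities in Cell and HD because, from the cells to the dense extracellular fraction, the signal of the 5p arm was higher and that of the 3p arm lower, so this opposite movement is the reason for their choice and is described below without a test. Of the 19 hairpins with both arms among the tested probes, 5 had arms that differed in opposite directions in that contrast. The fifth was miR-1228, whose 5p arm differed by -0.33 and whose 3p arm differed by 1.32 on the log2 scale, in the reverse order of the 4 hairpins. Just inside the rule, the smallest difference of a chosen arm was that of miR-652-5p at 1.10. Just outside it, the arms of miR-425 both differed downwards, by -3.94 for 5p and -0.19 for 3p.

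The RNA came from HMC-1, a human mast cell line derived from a mast cell leukaemia, grown at 37 °C in 5% CO2 with no other treatment named in the labels. The group Cell held total RNA of the cells. The groups HD and LD held the RNA that the cells had released, collected by ultracentrifugation and split by density on a sucrose gradient. HD is its high density part and LD its low density part. There were 3 libraries per group, and the design text pairs Cell, HD and LD libraries of the same number as coming from the same culture of this 1 line. Each extract was hybridised in 1 colour to its own array of locked nucleic acid probes, and the authors scaled each array so that the median of its detected probes was 25. A level relative to the median detected probe of the array is thus measured, not an amount per cell. In such bulk extracts fewer contributing cells and less RNA per cell cannot be told apart.

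Detected miRNA probes numbered 440 to 506 in Cell, 254 to 329 in HD and 303 to 368 in LD, that is 21.8% to 25.1% of all miRNA probes in Cell, 12.6% to 16.3% in HD and at most 18.2% in LD. The same detection threshold was passed by 6.30% to 7.27%, 6.11% to 7.57% and 5.53% to 7.57% of the blank spots, so a detection close to the threshold is a weak statement. Of 8 miRNAs of mast cells and other blood cells (both arms of miR-142, miR-223-3p, miR-221-3p, miR-222-3p, miR-146a-5p, miR-146b-5p and miR-155-5p), 7 were detected on all Cell arrays and all LD arrays, and miR-155-5p on none. In HD, 1 of the 8 was detected on all arrays and 5 on none. The red cell miRNA miR-451a stood at 27.7 in Cell, where 2 of 3 arrays detected it, and at 150 in HD (geometric means). Its part in the results for the hairpins was not tested. By the chip number and scan day in the names of the deposited files, the nearest there is to a slide here, the 3 Cell arrays stood alone, the 3 HD arrays shared a slide with LD replicate 1, and LD replicates 2 and 3 shared another, so slide and the difference between cells and fractions cannot be told apart.

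A miRNA hairpin is cut by the enzyme Dicer into a short duplex, whose 5p strand comes from the upstream side of the hairpin and whose 3p strand comes from the downstream side. In general an Argonaute protein keeps 1 strand as the guide that represses messenger RNAs through its seed, while the other is released and degraded. Extracellular miRNAs are known to travel in vesicles and in complexes with proteins or lipoproteins, which part by density on a gradient.

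The mature strands are shown because the results turn on which strand of a hairpin was measured. They are RefSeq entries of the assembly GRCh38.p14, matched by name for all 8 arms, and the capitals mark the seed, bases 2 to 8.
miR-423-5p: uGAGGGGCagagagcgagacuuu
miR-423-3p: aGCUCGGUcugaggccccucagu
miR-92b-5p: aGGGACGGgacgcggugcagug
miR-92b-3p: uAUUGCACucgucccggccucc
miR-652-5p: cAACCCUAggagagggugccauuca
miR-652-3p: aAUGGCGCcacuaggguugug
miR-4758-5p: gUGAGUGGgagccgguggggcug
miR-4758-3p: uGCCCCACcugcugaccacccuc
The 8 seeds all differed, so no pair of these arms shares a seed. The seed of miR-92b-3p is that of the miR-25, miR-32, miR-92a, miR-363 and miR-367 family, whose best known members come from the miR-17-92 cluster and its relatives.

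The hairpins are shown next with the mature strands in capitals, to place each arm in its precursor.
miR-423: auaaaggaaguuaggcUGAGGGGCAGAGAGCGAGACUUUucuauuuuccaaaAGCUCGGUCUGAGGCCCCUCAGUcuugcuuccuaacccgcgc
miR-92b: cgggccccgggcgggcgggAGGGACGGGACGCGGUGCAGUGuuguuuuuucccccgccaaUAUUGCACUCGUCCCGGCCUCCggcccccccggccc
miR-652: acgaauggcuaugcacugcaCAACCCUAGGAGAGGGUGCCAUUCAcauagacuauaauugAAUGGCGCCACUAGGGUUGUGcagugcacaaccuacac
miR-4758: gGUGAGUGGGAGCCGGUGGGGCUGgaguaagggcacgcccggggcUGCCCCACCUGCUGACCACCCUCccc
In GRCh38.p14, miR-423 lies at chr17:30117079-30117172 on the plus strand within the bounds of NSRP1, which encodes a splicing regulator of nuclear speckles. The hairpin miR-92b lies at chr1:155195177-155195272 on the plus strand within the long non-coding RNA gene THBS3-AS1. The hairpin miR-652 lies at chrX:110055329-110055426 on the plus strand within TMEM164, which encodes a transmembrane protein. The hairpin miR-4758 lies at chr20:62332487-62332557 on the minus strand within LAMA5, which encodes the laminin alpha 5 chain. Whether each hairpin is exonic or intronic was not resolved here.

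In the cells the 3p probe of each of the 4 hairpins gave the brighter signal. The probe for miR-423-3p read 102, 104 and 116 in Cell replicates 1, 2 and 3, and was detected on no HD array and on no LD array. The probe for miR-92b-3p, a strand of the miR-25 and miR-92a seed family, read 116, 140.0 and 126 in Cell, was detected on no HD array, and read 22.9 and 44.1 in LD replicates 2 and 3 with no detection in LD replicate 1. These 2 arms thus differed in LD, where miR-92b-3p remained measurable on 2 of 3 arrays. The probe for miR-652-3p read 92.5, 135 and 122 in Cell, was detected on no HD array, and read 29.3 in LD replicate 3 alone. The probe for miR-4758-3p read 27.5, 62.5 and 35.4 in Cell, was detected on no HD array, and read 57.8, 90.0 and 86.5 in LD. In HD none of the 12 measurements of a 3p arm passed detection, while in LD miR-4758-3p was present on every array and overlapped the Cell range only through LD replicate 1.

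The 5p arms had their highest signals in HD. The probe for miR-423-5p, a strand often measured in blood plasma, read 21.2, 19.2 and 22.8 in Cell, 97.7, 249 and 98.5 in HD, and 13.0 in LD replicate 3 with no detection in LD replicates 1 and 2. The probe for miR-92b-5p read 30.8, 32.3 and 28.3 in Cell, 143, 318 and 97.1 in HD, and 28.5, 36.0 and 27.5 in LD. Every HD value of these arms lay above every Cell and LD value, and HD replicate 2 was the brightest library for both. Arms higher in HD than in Cell were what the rule chose, so their separation from Cell is no added support. The separation from LD uses the same HD values and is none either. Over all 334 tested probes, 30.5% passed the test as higher in HD than in Cell and 26.3% as lower in LD than in HD. The share of all probes separated in this way was not counted. The probe for miR-652-5p read 30.7, 42.9 and 27.3 in Cell, 58.6, 93.0 and 64.3 in HD, and 19.8, 25.1 and 39.4 in LD. The probe for miR-4758-5p read 11.1 and 15.4 in Cell replicates 1 and 2 with no detection in replicate 3, 35.1, 34.6 and 25.2 in HD, and 23.4 in LD replicate 1 alone. For these arms, chosen in the same way, HD did not overlap the other groups either, although for miR-4758-5p LD replicate 1 lay just under HD replicate 3.

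**Figure D1:**
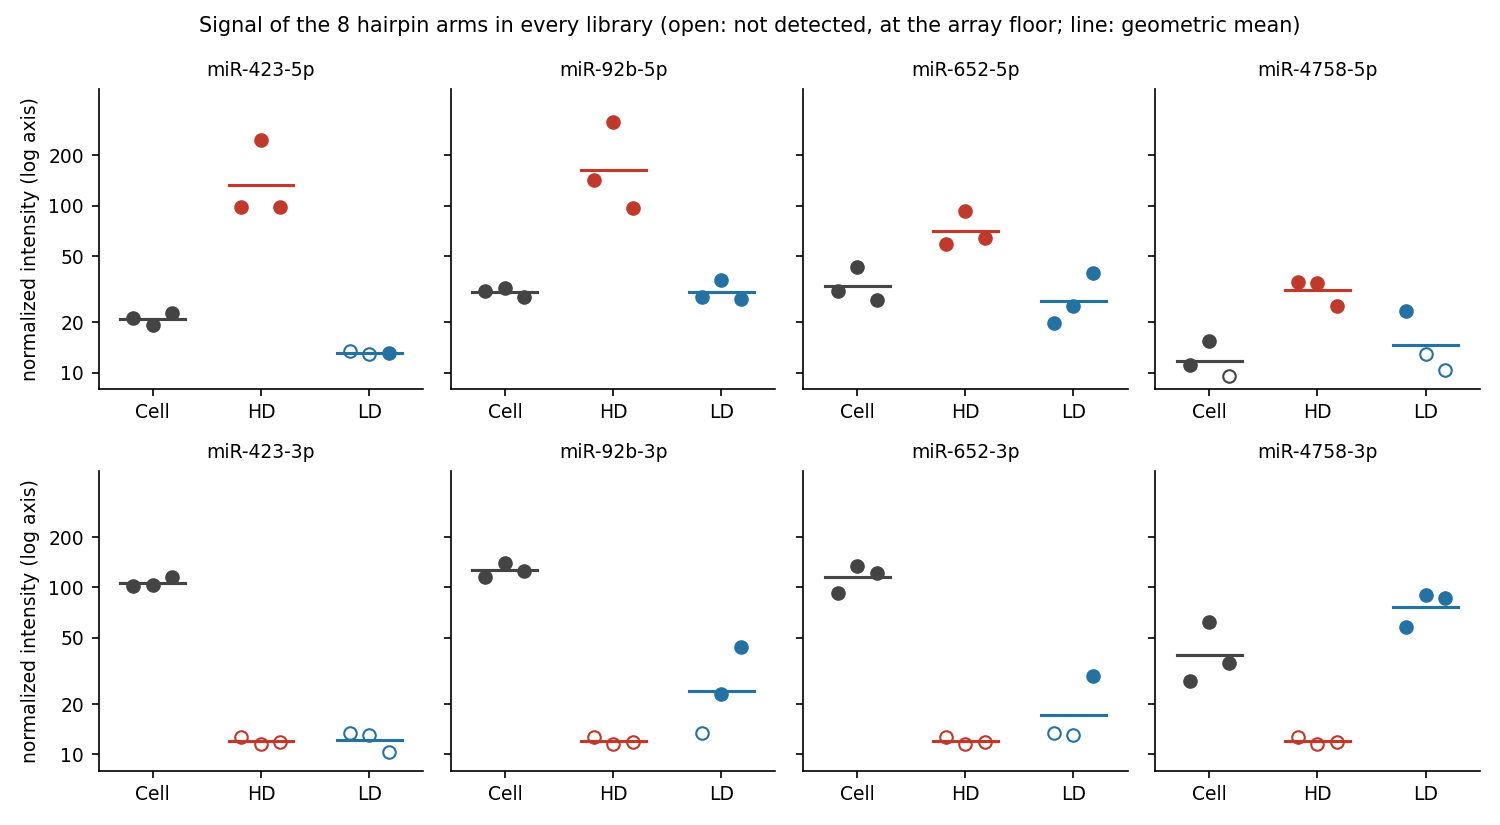
Normalized intensity (log axis) of the 5p arms (top) and 3p arms (bottom) of the 4 hairpins in the 3 Cell, 3 HD and 3 LD libraries. Filled points are detected values, open points are undetected ones set to the lowest detected value of the array, and lines are geometric means. The 5p arms are highest in HD, all 12 HD points of the 3p arms are open, and miR-4758-3p is detected on all 3 LD arrays.

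For the values that follow, an undetected signal took the floor of its array, the lowest value detected there, between 9.60 and 13.5 units. Between Cell and HD, the contrast that chose the hairpins, the geometric mean of miR-423-5p was 21.1 (SD 0.12 on the log2 scale, n = 3) in Cell and 134 (SD 0.77) in HD, a log2 difference of 2.67 (SE 0.36) or 6.36-fold. The strand miR-92b-5p stood at 30.4 (SD 0.10) and 164 (SD 0.87), a log2 difference of 2.43 (SE 0.34) or 5.40-fold. The other 5p arms differed less, with 33.0 (SD 0.34) and 70.5 (SD 0.35), or 2.14-fold, for miR-652-5p and 11.8 (SD 0.35) and 31.3 (SD 0.27), or 2.65-fold, for miR-4758-5p. The 3p arms had only a bound in HD. Their signals were at least 8.85-fold lower for miR-423-3p, at least 10.5-fold lower for miR-92b-3p, at least 9.51-fold lower for miR-652-3p and at least 3.25-fold lower for miR-4758-3p. Over all 334 tested probes 79.9% passed the test in this contrast, 30.5% higher and 49.4% lower in HD, with a median difference of -0.70.

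These fold changes depend on how the arrays are scaled, and the spike controls moved with the groups. Mean log2 normalized spike signals were 13.94 ± 0.28 in Cell, 11.01 ± 0.44 in HD and 11.67 ± 0.47 in LD (SD, n = 3). With arrays scaled on the spikes instead, the differences of the 3p arms between Cell and HD shrank to -0.22, -0.46 and -0.32 for miR-423, miR-92b and miR-652, and that of miR-4758-3p became 1.23. With arrays scaled on the probes detected everywhere, the differences of miR-652-5p and miR-4758-5p became -0.43 and -0.12. The direction of a single arm between cells and fractions is therefore relative to the scaling. The difference between the arms of a hairpin within a library, log2 5p minus log2 3p, is free of this, because any factor applied to a whole array cancels in it. Its size in a group depends on the affinity of the probes and is not a ratio of molecules, but its change between groups is comparable.

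In Cell the arm difference was negative in all 3 libraries for each hairpin. It was -2.27, -2.43 and -2.34 for miR-423, -1.91, -2.12 and -2.16 for miR-92b, and -1.59, -1.65 and -2.16 for miR-652. For miR-4758 it was -1.31 and -2.02 in replicates 1 and 2, and -1.88 in replicate 3, where the 5p arm was at the floor and the value is an upper bound. The libraries of Cell were thus close to each other, with SDs of 0.08, 0.13, 0.31 and 0.37 for miR-423, miR-92b, miR-652 and miR-4758. In HD every arm difference was positive and is a lower bound, since all 3p arms were undetected. It was at least 2.93, 4.42 and 3.04 for miR-423, at least 3.48, 4.78 and 3.02 for miR-92b, at least 2.20, 3.00 and 2.43 for miR-652, and at least 1.46, 1.58 and 1.08 for miR-4758. The change from Cell to HD, for which no test is given, was thus a bound set by the floors, of at least 5.81, 5.82, 4.34 and 3.11 for the hairpins in that order. That bound holds for the background-subtracted values only. The size depends on the background correction and on how undetected signals are valued. For miR-423 it ran from 1.20 in the authors' log2 table, which needs no floor, to 9.37 with undetected values at 0 and log2(value + 1). In that log2 table the difference of miR-423-5p, detected on all Cell and HD arrays, was 0.77 against 2.67, so detected signals differed less there too. Of the 19 hairpins tested in this way 78.9% passed the test between Cell and HD, 36.8% towards 5p and 42.1% towards 3p.

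**Figure D2:**
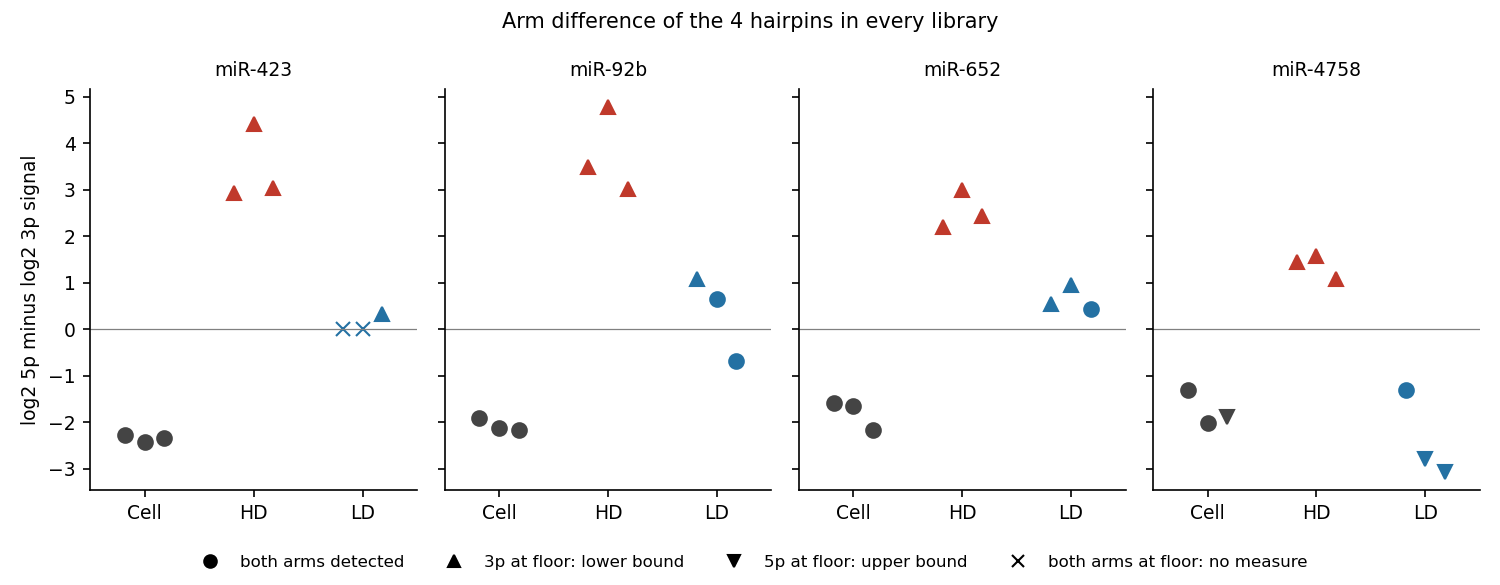
Arm difference (log2 5p minus log2 3p signal) of the 4 hairpins in every library, by group. Upward triangles are lower bounds with the 3p arm at the floor, downward triangles upper bounds with the 5p arm at the floor, and crosses libraries with both arms at the floor. Cell points lie below 0 and HD points above 0 for all 4 hairpins, while miR-4758 in LD lies below 0 like Cell.

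The light fraction was not used to choose the hairpins, so whether their arms part there as well was asked of LD against Cell. The Cell libraries were shared with the choosing contrast, so this is not independent of the choice. The 3p arms of miR-423, miR-92b and miR-652 were among the tested probes only because all Cell arrays detected them. For miR-4758-5p it was only because all HD arrays did. Each arm difference of the 4 hairpins thus holds an arm that entered through a group used in the choice, and its change is given with no test. In LD, miR-92b had arm differences of at least 1.08 in replicate 1 and of 0.65 and -0.68 in replicates 2 and 3, where both arms were detected. For miR-652 they were at least 0.55, at least 0.95, and 0.43 with both arms detected. All LD values of these 2 hairpins lay above all Cell values. Such a separation was common among the other tested hairpins, many of them with arms at the floor. The LD values of miR-142, miR-3607 and miR-3679 also lay wholly above Cell, and those of miR-17, miR-20a, miR-151a, miR-361 and miR-425 wholly below.

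The arm difference was higher in LD by 2.41 (SE 0.40) for miR-92b and by 2.44 (SE 0.28) for miR-652, in 3 of 3 cultures. With undetected values left missing, over fewer libraries, these values were 2.12 and 2.59. With log2(value + 1) that of miR-92b was 3.64. For miR-423 the value of 2.46 is set by floors, since both arms were undetected in LD replicates 1 and 2 and the 3p arm in replicate 3. On raw intensities with normexp correction and quantile normalization, which need no floor, the changes of miR-423, miR-92b and miR-652 were 0.53, 0.66 and 0.61, and in the authors' log2 table they were 0.32, 0.41 and 0.37. All 3 hairpins gave smaller values on both of these scales. Between Cell and LD 52.6% of the 19 hairpins passed the test, 26.3% in each direction.

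For miR-4758 the arm difference in LD was -1.30 in replicate 1, and at most -2.79 and at most -3.06 in replicates 2 and 3 with the 5p arm at the floor. The change from Cell was -0.65 (SE 0.34), given with no test as for the other hairpins. Without LD replicate 1 it was -1.06 and passed (limma adjusted p = 0.0189), and without culture 1 it was -0.97 and passed (limma adjusted p = 0.0275). LD replicates 2 and 3 of miR-4758 thus lay below every Cell value, where all LD values of miR-92b and miR-652 lay above.

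By arm and with the authors' scaling, the largest differences of LD from Cell were lower signals of the 3p strands of miR-423, miR-92b and miR-652. The strands miR-423-3p, miR-92b-3p and miR-652-3p entered the tested probes only through Cell, the group where they are high and which chose them, so their differences are given with no test. The level of miR-423-3p was at least 8.76-fold lower in LD, with every LD array below detection. The level of miR-92b-3p differed by -2.41 on the log2 scale and that of miR-652-3p by -2.74, with floors in 1 and 2 of the 3 LD libraries. Scaled on the spikes, these values were -0.86, -0.14 and -0.46 for miR-423-3p, miR-92b-3p and miR-652-3p. The strand miR-4758-3p, detected on all Cell and LD arrays, rose 1.95-fold (log2 0.96, SE 0.32, limma adjusted p = 0.0234), where 60.8% of all 334 probes passed this test, 16.8% higher and 44% lower in LD, with a median difference of -0.54. That call was lost in 6 of the 12 fits that left out a library or a culture: without Cell replicate 1 (0.79), Cell replicate 3 (0.85), LD replicate 2 (1.00), LD replicate 3 (0.83), culture 1 (0.91) or culture 3 (0.80). With arrays scaled on the probes detected everywhere the difference was 0.19 and did not pass either.

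The strand miR-4758-5p entered the tested probes only through HD, where it was chosen for its high signal, and is given with no test. None of the other 5p arms passed the test between Cell and LD with the authors' scaling, and which of them passed varied with the scaling. The log2 difference was 0.0027 (SE 0.34, limma adjusted p = 0.994) for miR-92b-5p. It was -0.29 (SE 0.33, limma adjusted p = 0.47) for miR-652-5p and -0.68 (SE 0.36, limma adjusted p = 0.131) for miR-423-5p. For miR-4758-5p it was 0.32 (SE 0.32). Without HD replicate 2, which enters the shared spread, the value of miR-423-5p was the same and passed (limma adjusted p = 0.0479). Scaled on the probes detected everywhere, miR-423-5p at -1.45 and miR-652-5p at -1.06 passed (limma adjusted p = 0.00227 and 0.0171). After quantile normalization miR-92b-5p passed at 0.78 (limma adjusted p = 0.0333), and with log2(value + 1) miR-423-5p passed at -3.19 (limma adjusted p = 0.0445). Scaled on the spikes, all 4 rose in LD, by 1.60 for miR-423-5p, 2.28 for miR-92b-5p, 1.98 for miR-652-5p and 2.59 for miR-4758-5p.

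Between the fractions all 4 hairpins had a lower arm difference in LD than in HD. The HD libraries chose the hairpins, and all HD arm differences are lower bounds, so this contrast is a description with no test. With floors in place the change was -3.41 for miR-92b, -1.90 for miR-652 and -3.75 for miR-4758, where some LD values are bounds as well. It was -3.36 for miR-423, whose LD values are set by floors. Of the 19 hairpins 68.4% passed the test in this contrast, 42.1% higher and 26.3% lower in LD. On the chip that held the HD arrays and LD replicate 1, the difference of that library from the HD mean was -3.47, -2.68, -1.99 and -2.67 for miR-423, miR-92b, miR-652 and miR-4758.

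Which arm carried this difference varied. The 5p arms, chosen for their high HD signals, were lower in LD in all 4 hairpins. The difference was 5.39-fold for miR-92b-5p and 2.62-fold for miR-652-5p, which were detected on all arrays of both fractions. It was 10.2-fold for miR-423-5p and 2.13-fold for miR-4758-5p, with 2 of the 3 LD values of each at the floor. Without scaling of the arrays the log2 differences were -1.77 for miR-92b-5p, -0.72 for miR-652-5p and -0.43 for miR-4758-5p, against -2.43, -1.39 and -1.09 with the authors' scaling. Scaled on the probes detected everywhere, miR-652-5p and miR-4758-5p differed by -0.63 and -0.33. Over all probes 52.1% passed the test in this contrast, 25.7% higher and 26.3% lower in LD, with a median of 0.01.

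Among the 3p arms, none of which was detected in HD, miR-4758-3p was at least 6.33-fold higher in LD. The level of miR-92b-3p was higher by 0.98 on the log2 scale with LD replicate 1 at the floor, and by 0.53 without LD replicate 3. For miR-652-3p the difference was 0.51 and rested on LD replicate 3, and miR-423-3p was at the floor in both fractions. On the shared chip, LD replicate 1 differed from the HD mean by -3.31, -2.52, -1.83 and -0.42 for the 5p arms of miR-423, miR-92b, miR-652 and miR-4758 and by 2.26 for miR-4758-3p.

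Among the other 15 hairpins, the median change of the arm difference was -1.25 from Cell to HD (range -6.01 to 5.89), -0.28 from Cell to LD and 0.90 from HD to LD. Those named by the size of this change were miR-20a (-6.01), miR-223 (5.89) and miR-17 (-5.64) in HD, and miR-20a (-2.86), miR-3607 (2.53) and miR-361 (-2.32) in LD. In HD neither arm of miR-20a, miR-223 and miR-17 was detected on 2 of the 3 arrays, and in LD neither arm of miR-3607 was detected on any, so these sizes are set by floors and have no order among themselves or with the 4 hairpins. Both arms of miR-223, a myeloid hairpin, were lower in HD, so the rule left it out.

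**Figure D3:**
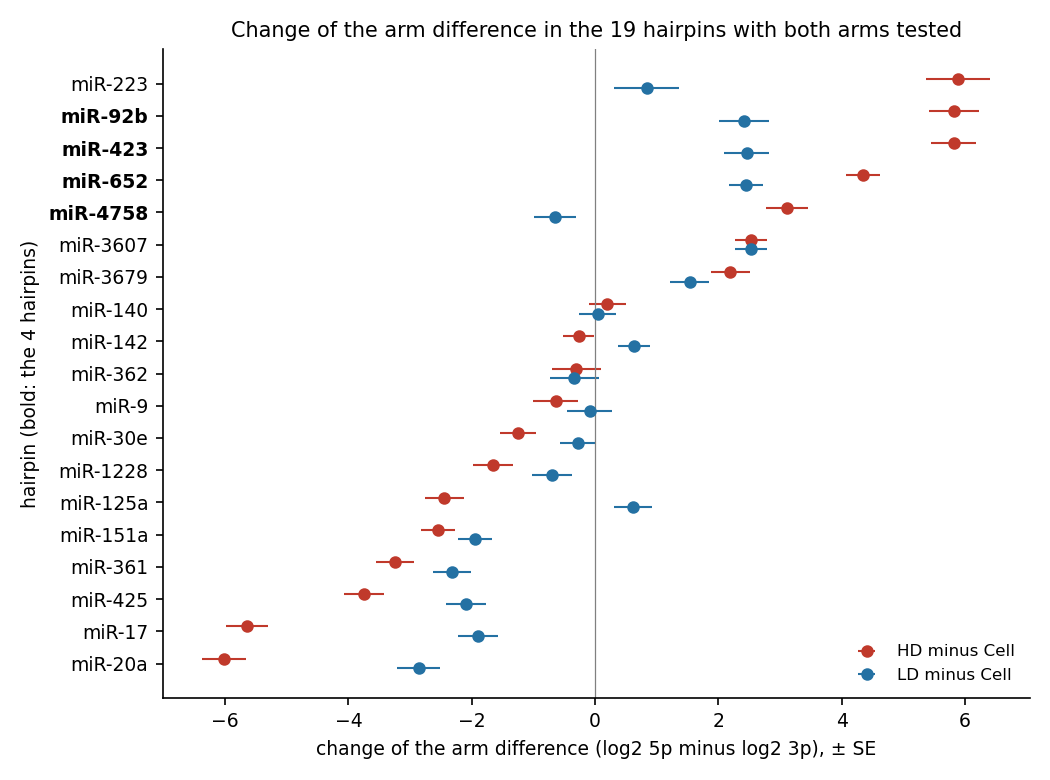
Change of the arm difference from Cell to HD (red) and from Cell to LD (blue) for the 19 hairpins with both arms tested, on the log2 scale with the standard error of the model. The 4 chosen hairpins, in bold, lie between 3.11 and 5.82 in HD, and in LD 3 of them lie near 2.4 and miR-4758 at -0.65. Undetected arms are at the floor of their array, so many points are bounds and their order is not a ranking.

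By detection alone, which uses no floor but the same arrays, few hairpins parted in this way. Of 531 hairpins with probes for both arms, 22 (4.14%) had the 5p arm on all 3 HD arrays and the 3p arm on none, and 12 (2.26%) had the reverse. Only 5 of the 531 also had the 3p arm on all 3 Cell arrays and the 5p arm on at least 1, namely the 4 hairpins and miR-142. This pattern largely restates the rule on the same Cell and HD arrays, so its presence in the 4 hairpins is no separate support. Both miR-142 arms were lower in HD, by -4.71 for 5p and -4.45 for 3p. The mirror pattern, with 5p detected in Cell and 3p kept in HD, was found for 1 hairpin, miR-125a.

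The raw signals behind these calls were close to the background of the arrays. As a ratio of raw intensity to the array's background, the 3p arms lay between 1.16 and 1.68 in Cell and between 0.980 and 1.05 in HD, where between 35.9% and 87.6% of the blank spots of the array were dimmer. The 5p arms lay between 1.01 and 1.21 in Cell and between 1.13 and 2.16 in HD, where they exceeded 96.9% to 99.9% of the blank spots. In LD the 5p arms lay between 0.979 and 1.29 and the 3p arms between 0.991 and 1.64. The 3p arms in HD were thus within the range of blank spots, and the 5p arms in HD were above most of them.

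**Figure D4:**
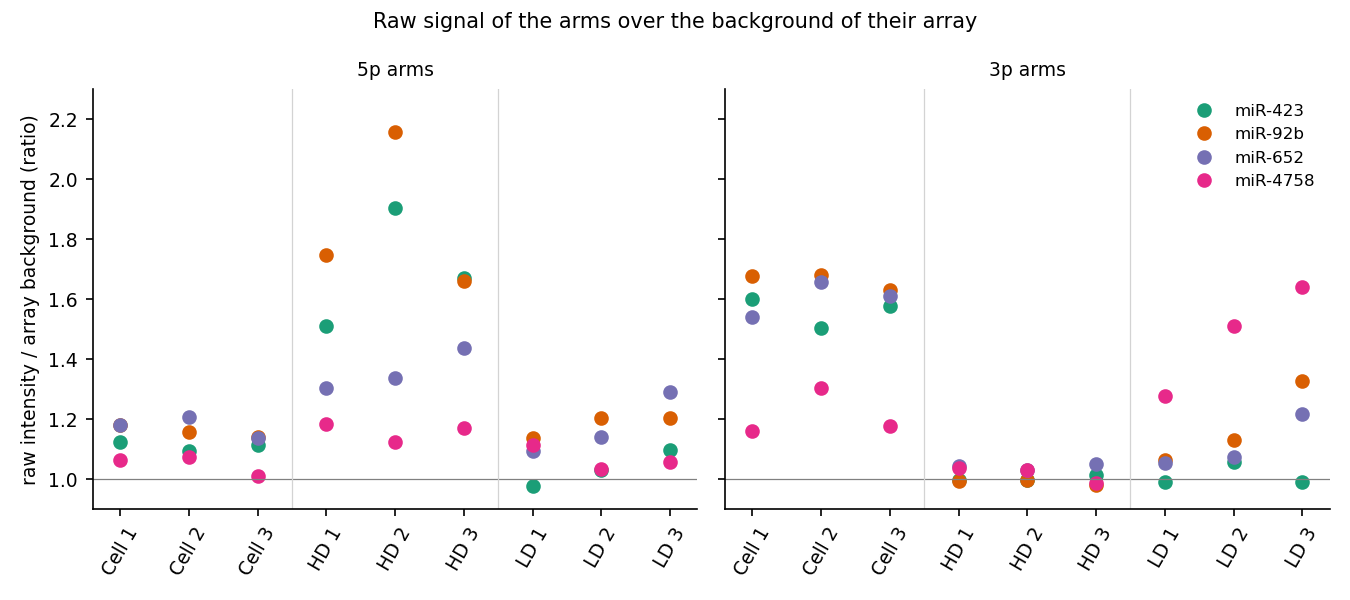
Raw intensity of each arm divided by the background of its array, per library, for 5p arms (left) and 3p arms (right) of the 4 hairpins; the line at 1 marks the background. The 3p arms of the HD arrays lie between 0.980 and 1.05, and the 5p arms of the HD arrays reach 2.16.

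Relatives of the arms were looked at by seed and by strand. The seed of miR-92b-3p, AUUGCAC, is shared by miR-25-3p and miR-92a-3p, miRNAs of the same family that many cell types express. The level of miR-25-3p was 140 in Cell and below detection on all HD arrays, and it was 16.4 in LD, where 1 of 3 arrays detected it. The level of miR-92a-3p was 305 in Cell, 14.4 in HD and 57.4 in LD, and fell by 4.40 in HD (limma adjusted p = 3.85e-07) and by 2.41 in LD (limma adjusted p = 5.73e-05). Both seed relatives were thus lower in both fractions, like miR-92b-3p. The relatives miR-32-5p and miR-367-3p were detected on no array, and miR-363-3p on 2 Cell arrays only.

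A 5p relative of this family also had its higher signals outside the cells. The strand miR-92a-2-5p was detected on no Cell array, read 30.5, 35.2 and 32.5 in HD, and read 37.3 and 30.0 in LD replicates 2 and 3 with no detection in LD replicate 1. With Cell at the floor, its log2 level was higher by at least 1.67 in HD, the group through which it entered the tested probes, and no test is given. The relatives miR-25-5p, detected on 2 Cell arrays, and miR-92a-1-5p, detected on none, gave no test.

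The hairpin of miR-423 overlaps MIR3184 on the opposite strand, and the overlap is complete for 1 arm: miR-423-5p and miR-3184-3p cover the same 23 positions, chr17:30117095-30117117, as complements. The probe for miR-3184-3p was detected only in HD replicate 1, at 62.1. The strand miR-3184-5p shares the seed GAGGGGC with miR-423-5p and read 16.5 and 12.4 in HD replicates 1 and 2 and 20.8 in LD replicate 1. The opposite-strand entries were thus detected on few arrays, while miR-423-5p was detected on all 3 HD arrays. The seed of miR-4758-5p is shared by miR-1238-5p, which was detected on 1 Cell, 2 HD and 1 LD arrays and was not tested. Whether other RNAs bound to any of these probes was not tested.

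The probes whose pattern over the 9 arrays was most like each arm were found by Pearson r of the log2 levels with floors included. These r values follow the 3 groups and are descriptions. The level of miR-423-5p ran closest to miR-4667-5p (0.972) and miR-3622a-5p (0.970), and that of miR-92b-5p to miR-30c-1-3p (0.993) and miR-3141 (0.987). The level of miR-652-5p ran closest to miR-575 (0.931) and miR-4667-5p (0.908), and that of miR-4758-5p to miR-6510-5p (0.932) and miR-491-5p (0.930). The 3p arms had other neighbours. Closest to miR-423-3p were miR-4638-5p (0.999) and miR-3651 (0.996), and closest to miR-92b-3p were let-7i-5p (0.994) and miR-195-5p (0.986). Closest to miR-652-3p were miR-25-3p (0.994) and miR-361-5p (0.992), and closest to miR-4758-3p were miR-4467 (0.955) and miR-5100 (0.914). With its own partner arm, r was -0.32 for miR-423, -0.66 for miR-92b, -0.31 for miR-652 and -0.70 for miR-4758. Arms that move in opposite directions from Cell to HD were what the rule chose, so this negative sign is largely built in.

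The printed strands differ in base composition, which the rule did not use. The share of G in the mature sequence was 43.5% for miR-423-5p and 30.4% for miR-423-3p, 54.5% for miR-92b-5p and 18.2% for miR-92b-3p, and 60.9% for miR-4758-5p and 13.0% for miR-4758-3p. The hairpin miR-652 went the other way, with 28.0% for 5p and 38.1% for 3p. The 5p arm was thus the richer in G in 3 of the 4 hairpins, and it was so in 7 of the 12 other hairpins with both sequences. By GC share it was the richer in 2 of the 4, with 72.7% against 63.6% for miR-92b and 73.9% against 69.6% for miR-4758, while miR-423 had 56.5% for 5p and 65.2% for 3p and miR-652 had 56.0% and 57.1%. Across the 277 tested probes with a RefSeq sequence, G share and the log2 difference between Cell and HD correlated with r = 0.55 (rho = 0.58), and with r = 0.55 over the 269 probes without the 8 arms. For GC share r was 0.58 (rho = 0.62) in HD and 0.67 in LD, where that for G share was 0.55, and for the share of purines it was 0.42 in HD. With the probes split into 4 bins of G share, the median difference between Cell and HD was -2.20, -2.64, 0.86 and 0.98 from the lowest bin to the highest. Probes share arrays and depend on composition for their affinity, so this is a description across probes with no test.

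Within hairpins the relation was weaker. Over the 16 hairpins with both sequences, the difference in G share between the arms and the change of the arm difference from Cell to HD correlated with r = 0.29, and with r = 0.26 over the 12 hairpins other than the 4. With GC share in place of G share these were 0.14 and 0.13. Among the 12 other hairpins, 1 of which had equal shares, the arm richer in G was the one with the higher change in HD in 5. For the 4 hairpins the rule fixed 5p as the arm with the higher change in HD. Their count, 3 of 4, therefore only restates their G shares. In LD the arm richer in G had the higher change in 2 of the 4 hairpins and in 3 of the 12 others.

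**Figure D5:**
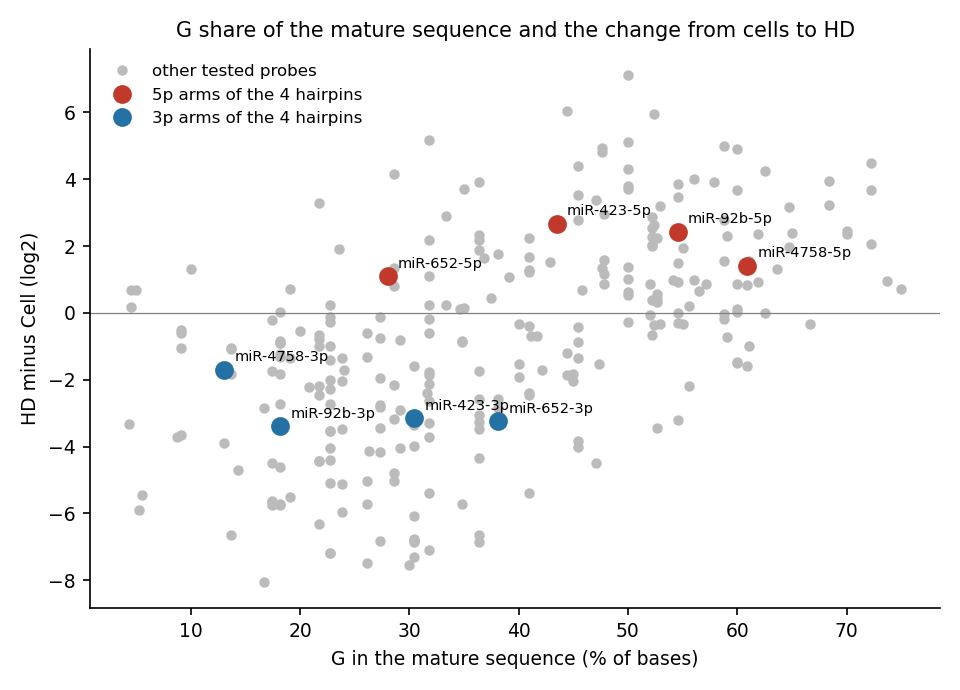
G share of the mature sequence (% of bases) against the log2 difference HD minus Cell for the tested probes with a RefSeq sequence. Red points are the 5p arms and blue points the 3p arms of the 4 hairpins, with the other tested probes in grey. The 5p arms of miR-423, miR-92b and miR-4758 lie at 43.5% to 60.9% G, and miR-652-5p at 28.0%, below its own 3p arm at 38.1%.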

How the data were processed

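The 9 arrays measured miRNAs of HMC-1 cells (Cell) and of the dense (HD) and light (LD) fractions of their extracellular RNA, with 3 libraries each. Per the file headers, the authors deposited 3 intensities for each spot: raw, after background subtraction, and after global normalization. Compared with one another, these deposited columns show 1 background value per array, close to the blank spot mean without the highest and lowest 5%. They also show empty values below that mean plus 2 SD, and a factor per array that sets the median of detected probes to 25. The authors also deposited a table of log2 values for the series, used here as an alternative. For the scanner and its software, nothing is given in the sources used here.

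The log2 of the normalized intensity was analysed. An undetected value took the floor of its array, the lowest value detected there, and 25 values marked NG were left out. Tests covered the 334 probes that every array of at least 1 group detected, with limma 3.58.1 in R 4.3.3 (lmFit, contrasts.fit, eBayes). Culture was a block because the design text pairs same-numbered libraries. Their deviations from the group means correlated at -0.284 to 0.212 over 9 pairs, 1 of them over 0.1, so the pairing rests on that text. The tests were two-sided with a Benjamini-Hochberg adjusted p under 0.05 as threshold, adjusted over all 334 probes or, for arm differences, over all 19 hairpins with both arms tested. Replicates are separate cultures of 1 line, and the p-values measure the spread between their arrays. The number of arrays limits the precision. For the arms, HD against Cell and LD against HD are described without a test, as are 3p arms that were tested only through Cell. A bound ("at least") sets the mean of the detected group against the mean of the floors. On simulated data with known changes for LD against Cell, 97.5% of 200 changed probes among 334 (log2 change of 2) were recovered with 7 false calls, and 8 of 8 hairpins among 19 with none.

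The members and lists were chosen with earlier results of these data known. Named besides the 8 arms are the 2 probes most correlated with each arm, the 3 other hairpins with the largest change of the arm difference in HD and in LD, seed relatives, opposite-strand entries and 5p relatives of miR-92b. Sequences and positions came from RefSeq tables (GRCh38.p14), which named 277 of the 334 tested probes. The markers of liver, epithelial, muscle, endothelial and neural cells gave 1, 5, 4, 1 and 2 probes on the array. On all Cell arrays 0, 0, 0, 1 (miR-126-3p) and 1 (miR-9-5p) of them were detected, and on all HD arrays none. Of 3 red cell miRNAs, 1 was detected on all HD arrays. Alternatives covered the block, the groups in the fit, scaling, background correction, the floor, the filter, slide as a random block, and leaving out each library or culture. Python 3.11.15 with matplotlib 3.10.9 made the figures.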

Additional observations from a re-analysis of the deposited data

How the results depend on the processing

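Arm differences did not move with the scaling of arrays, because a factor per array cancels in them. Their size between Cell and HD, which has no test, depended on the background correction and on how the undetected 3p arms were valued. In the order miR-423, miR-92b, miR-652 and miR-4758 it was 1.81, 2.04, 1.28 and 0.73 on raw intensities with normexp and quantile normalization. It was 1.20, 1.37, 0.84 and 0.44 in the authors' log2 table, from which no background was subtracted, and 9.37, 9.39, 7.93 and 7.81 with log2(value + 1) and undetected values at 0. Between Cell and LD, also with no test, log2(value + 1) took miR-423 to 3.56 and miR-92b to 3.64. With undetected values left missing, miR-92b was at 2.12 and miR-652 at 2.59, both over fewer values. The change of miR-4758 was -0.55 with normexp and quantile normalization and -0.40 in the authors' log2 table. It was -1.46 with quantile normalization of the background-subtracted values. Leaving out a library or a culture gave -1.06 to -0.38 for miR-4758, 2.02 to 2.88 for miR-92b and 2.33 to 2.66 for miR-652.

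For single arms, scaling on the spikes turned miR-423-5p to 1.60 and miR-652-5p to 1.98 between Cell and LD, and miR-4758-3p to 1.23 between Cell and HD. Scaling on probes detected on all arrays turned miR-652-5p to -0.43 and miR-4758-5p to -0.12 between Cell and HD. The cause was not tested. Of the probes, 267 passed between Cell and HD, against 140 with undetected values missing and 58 among probes detected on all 9 arrays. Between Cell and LD 203 passed, against 95 without scaling and 44 among probes detected on all arrays. Between HD and LD 174 passed, against 100 without scaling, 113 with undetected values missing and 54 among probes detected on all arrays; leaving out a library or a culture gave 113 (without culture 2) to 179. Of the hairpins, the wider filter (a probe on at least 2 arrays) gave 42, 29 and 28 calls of 76 for the 3 comparisons in the order HD against Cell, LD against Cell and LD against HD, where 15, 10 and 13 of 19 passed. Between Cell and LD 0 of 9 passed with undetected values missing and 2 of 19 with log2(value + 1), and between HD and LD 0 of 1 passed with undetected values missing.

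Without the replicate block the counts were 267, 201 and 170 probes and 15, 10 and 13 hairpins for the same 3 comparisons. The calls of the arms tested between Cell and LD did not change. Among probes detected on all 9 arrays no hairpin kept both arms, so no arm difference could be had. Leaving undetected values missing gives no value for the 3p arms in HD. Signals close to the background limit all of these values.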
